A study of Danio rerio with 6 samples.

Results

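Nuclear receptor cofactors were followed in sorted zebrafish hindbrain cells from embryos given retinoic acid (RA). The 6 genes were chosen by symbol or gene ID from 32520 genes in the count tables: the corepressor genes nrip1a, nrip1b and ncor1 and the coactivator genes ncoa1, ncoa2 and ncoa3. All 6 were found and all 6 were among the 17270 genes with enough counts to be tested. The RA group received 50 nM RA in DMSO from 24 hours post fertilization (hpf) and the DMSO group received the solvent alone, with 3 RNA-seq libraries in each. Embryos of both groups carried Tg(isl1:Kaede), a transgene in which isl1 regulatory sequence drives the fluorescent protein Kaede, were kept in 0.2 mM PTU and were sampled at 38 hpf. Each library came from 4500 to 10000 Kaede-positive cells that excluded a dead-cell dye, sorted from dissected posterior hindbrain and labelled as vagus motor neurons. The gate selects isl1-driven fluorescence and not the vagus nucleus as such. Whether the replicates came from separate clutches is not stated in the labels, so p-values here measure the spread between these libraries, which may be technical.

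Retinoic acid acts through heterodimers of the RAR and RXR nuclear receptors. Without ligand, the receptor binds large corepressors of the NCoR family, which bring histone deacetylase to the target gene. Ligand binding changes the receptor's surface so that coactivators of the SRC family, encoded by the ncoa1 to ncoa3 genes, take the corepressor's place and recruit histone acetyltransferases. The product of NRIP1 (RIP140 in mammals) is unusual in being a corepressor that binds receptors carrying an activating ligand, where it recruits CtBP proteins and histone deacetylases. In human embryonal carcinoma cells NRIP1 is itself known as an RA-induced gene. Zebrafish carry the gene as the paralogs nrip1a and nrip1b.

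The libraries held 15971653 to 22349857 counted fragments in RA and 20432411 to 23411427 in DMSO, and every cofactor gene had at least 301 counts in every library. RA replicate 9 stood apart on the second principal component of the 1000 most variable genes, at -55.5 where the other 5 libraries lay between 2.65 and 19.2. On the first component RA replicates 6, 9 and 12 lay at 53.5, 3.85 and 22.0, and the DMSO libraries between -36.3 and -19.6. Results are therefore also given below with single libraries left out. The motor neuron factors isl1a and phox2bb averaged 1236 ± 241 and 2011 ± 117 CPM in RA, and 1964 ± 379 and 2853 ± 333 CPM in DMSO (SD, n = 3 each). CPM expresses a gene's count relative to its library's scaled total. The treatment could be read from cyp26a1, which encodes an RA-degrading enzyme. It averaged 1574 ± 1439 CPM in RA and 3.31 ± 1.53 CPM in DMSO, which is 8.90 ± 0.89 (SE) on the log2 scale, with an edgeR adjusted p-value of 0.00729.

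The cofactor genes fell into 2 sets in these libraries. The corepressor genes nrip1a and nrip1b, and to a smaller degree the coactivator gene ncoa3, were higher in every RA library than in any DMSO library. The corepressor gene ncor1 and the coactivator genes ncoa1 and ncoa2 overlapped between the groups. By edgeR, with p-values adjusted over every tested gene, 0 of the 6 passed the threshold of 0.05, where 0.799% of tested genes passed in either direction and 0.446% passed higher in RA. At an unadjusted p under 0.05 edgeR had 3 of 6, all higher in RA, where 10.2% of tested genes stood in either direction and 5.3% higher. DESeq2 passed 3 of 6 after adjustment, all higher, where 2.07% of tested genes passed higher. With limma-voom 0 of 6 passed, where 0.625% of tested genes did. With quality weights for the libraries added, 3 of 6 passed higher, where 1.13% of tested genes did. The groups did not overlap in 3 of 6, all higher in RA. Over all tested genes 15.5% did not overlap in either direction and 7.78% were higher. Each count of 3 named the same genes, nrip1a, nrip1b and ncoa3, in the same libraries, so these counts are not independent. The members were also chosen with earlier results of these data known. The median log2 fold change was 0.40 over the 6 genes and 0.02 over all tested genes. In bulk RNA a change in the share of cells that express a gene and a change in RNA per cell cannot be told apart.

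**Figure D1:**
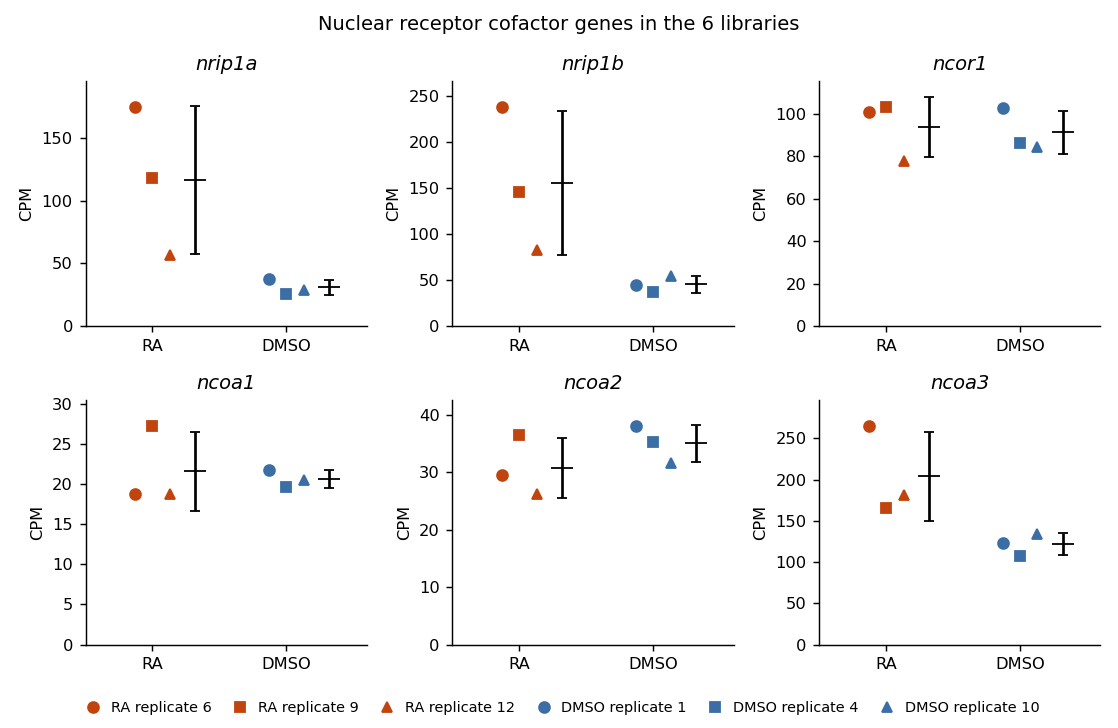
CPM (vertical axes, starting at 0) of the 6 cofactor genes in RA libraries (left, orange) and DMSO libraries (right, blue), with 1 point per library and the mean ± SD (n = 3) as a black bar. The RA points of nrip1a, nrip1b and ncoa3 lie above all DMSO points, and those of ncor1, ncoa1 and ncoa2 overlap them.

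Among the corepressors, nrip1a (ENSDARG00000068965; GRCz11 chromosome 15, 29662401 to 29713359, plus strand) had 174, 118 and 56.8 CPM in RA replicates 6, 9 and 12, against 37.4, 25.9 and 28.9 CPM in DMSO replicates 1, 4 and 10. The RA libraries were spread widely, and even the lowest of them, replicate 12, lay above the highest DMSO library. The fold change was 3.79 (95% interval 2.10 to 6.82), a log2 value of 1.92 (SE 0.37), with an unadjusted p of 0.000774 and an edgeR adjusted p-value of 0.0711. By p-value it ranked 188 of the 17270 tested genes.

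The paralog nrip1b (ENSDARG00000068894; GRCz11 chromosome 10, 38256556 to 38316134, minus strand) had 237, 145 and 82.8 CPM in RA replicates 6, 9 and 12. DMSO replicates 1, 4 and 10 held 44.6, 36.5 and 54.1 CPM. Its RA libraries stood in the same order as those of nrip1a, and again none reached down to the DMSO range. The fold change was 3.44 (95% interval 1.97 to 6.02), a log2 value of 1.78 (SE 0.35), with an unadjusted p of 0.000901 and an edgeR adjusted p-value of 0.0768. It ranked 201 by p-value.

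Both paralogs had similar estimates. The log2 ratio of nrip1a to nrip1b, taken from CPM without division by length, was -0.45, -0.30 and -0.54 in RA replicates 6, 9 and 12, and -0.25, -0.50 and -0.91 in DMSO replicates 1, 4 and 10. The groups' means were -0.43 ± 0.12 in RA and -0.55 ± 0.33 in DMSO (SD, n = 3 each). The difference of 0.12 was not distinguishable from 0 (exact two-sided permutation test, p = 0.7, where 0.1 is the smallest p that 3 against 3 can give). Neither gene shares annotated exon bases with another gene. How much sequence the paralogs share was not tested, and fragments mapping to both would have been left out of the counts.

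Spread within the RA group was larger than within DMSO for both genes. The coefficient of variation was 50.5% in RA and 19.5% in DMSO for nrip1a, and 50.1% in RA and 19.5% in DMSO for nrip1b. Relative to the DMSO mean, nrip1a stood 5.68-fold higher in RA replicate 6, 3.84-fold in replicate 9 and 1.85-fold in replicate 12. The same values for nrip1b were 5.27, 3.22 and 1.84. Genes listed for the RA response mostly ordered the RA libraries differently. Among the RA libraries, all 8 of the 11 with a higher estimate were lowest in replicate 9. The 3 with a lower estimate were lowest in replicate 6 or 12. For cyp26a1 the values were 962-fold in replicate 6, 128-fold in replicate 9 and 336-fold in replicate 12, and for the hox gene hoxb1b they were 16.0, 6.95 and 11.1. Replicate 6 was highest for nrip1a, nrip1b, cyp26a1 and hoxb1b, while the lowest was replicate 12 for the nrip1 paralogs and replicate 9 for cyp26a1 and hoxb1b. The coactivator gene ncoa3, described below, stood 2.18-fold higher than the DMSO mean in replicate 6, 1.36-fold in replicate 9 and 1.49-fold in replicate 12. Replicates of a group have no order, and what separates these libraries was not tested.

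The call for the nrip1 paralogs rested on the test and on single libraries, and their direction did not. Over 15 alternative settings the log2 fold change of nrip1a was 1.51 to 2.25 and that of nrip1b 1.34 to 2.08. Both passed in 4 of the 15: without RA replicate 12, with no filter on low counts, with DESeq2 and with limma-voom quality weights. These 2 of the 6 cofactor genes passed with no filter, where 0.578% of tested genes passed higher in RA. RA replicate 12 was the RA library nearest to DMSO for both paralogs, while on the first component that was replicate 9. Without replicate 12 the edgeR adjusted p-values were 0.0275 for nrip1a and 0.0333 for nrip1b. In that fit 0.207% of tested genes passed higher. In the 5 other fits that left out a library neither gene passed. Their edgeR adjusted p-values were 0.0926 to 0.301 for nrip1a and 0.0909 to 0.325 for nrip1b. The lowest of these came without RA replicate 9, the library that stood apart on the second component.

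**Figure D2:**
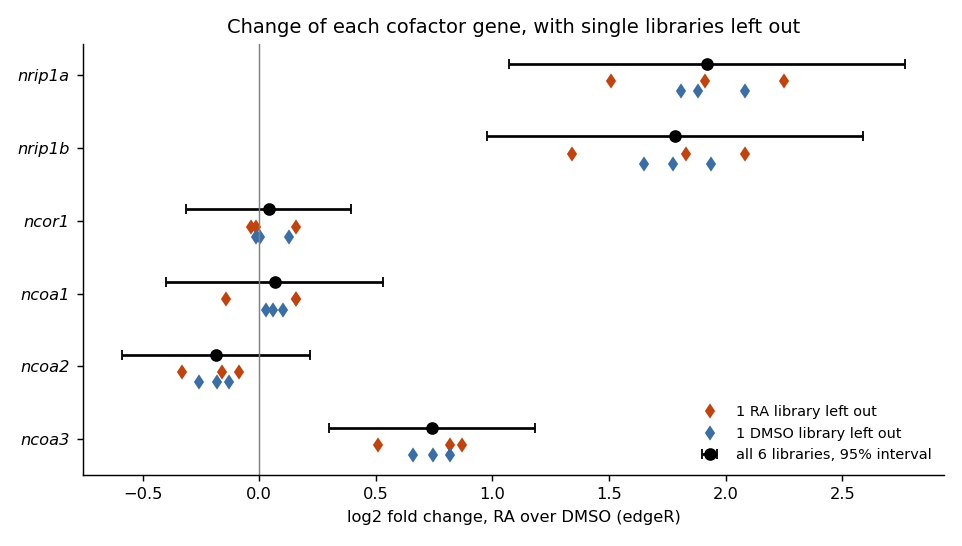
Log2 fold change of RA over DMSO (horizontal axis) for each cofactor gene, as the estimate from all 6 libraries with its 95% interval (black) and as estimates with 1 RA library (orange diamonds) or 1 DMSO library (blue diamonds) left out. All diamonds of nrip1a, nrip1b and ncoa3 lie right of 0, and those of ncor1 and ncoa1 lie on both sides of it.

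The third corepressor gene, ncor1 (ENSDARG00000035285; GRCz11 chromosome 5, 41878252 to 41996414, minus strand), encodes the scaffold that carries histone deacetylase to receptors without ligand. It had 101, 103 and 77.7 CPM in RA replicates 6, 9 and 12 and 103, 86.4 and 84.5 CPM in DMSO replicates 1, 4 and 10. The groups overlapped fully, with the lowest library of all in RA. On the log2 scale the change was 0.04 (SE 0.15) with an edgeR adjusted p-value of 0.981, and the 95% interval of the fold was 0.805 to 1.31. The sign of this near-zero estimate turned in 3 of the fits that left out a library.

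Among the coactivator genes the highest estimate was that of ncoa3 (ENSDARG00000077404; GRCz11 chromosome 11, 18612166 to 18699569, plus strand), which encodes the third SRC family member, known in human as AIB1. It had 265, 165 and 181 CPM in RA replicates 6, 9 and 12, against 123, 108 and 134 CPM in DMSO replicates 1, 4 and 10. The groups did not overlap, and replicate 6 stood highest among the RA libraries. The fold change was 1.67 (95% interval 1.23 to 2.27), a log2 value of 0.74 (SE 0.19), with an unadjusted p of 0.00458 and an edgeR adjusted p-value of 0.168. Among the 15 alternatives the threshold was passed in 2, at an adjusted p of 0.0203 by DESeq2 and 0.0408 by limma-voom quality weights. Leaving out RA replicate 6 gave an estimate of 0.51 on the log2 scale.

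The coactivator gene ncoa1 (ENSDARG00000018257; GRCz11 chromosome 20, 36682051 to 36792710, plus strand) encodes the founding member of the SRC family. It had 18.7, 27.3 and 18.8 CPM in RA replicates 6, 9 and 12 and 21.8, 19.6 and 20.5 CPM in DMSO replicates 1, 4 and 10. Replicate 9 was the highest library and the other 2 RA libraries were the lowest, so the groups overlapped. The estimate was 0.07 on the log2 scale (SE 0.20, edgeR adjusted p-value 0.974), with a 95% interval of the fold from 0.759 to 1.45. Its sign turned without RA replicate 9, to -0.14.

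The coactivator gene ncoa2 (ENSDARG00000017929; GRCz11 chromosome 24, 14240196 to 14445137, plus strand), whose product is known in human as TIF2, was the member with a negative estimate. It had 29.6, 36.5 and 26.3 CPM in RA replicates 6, 9 and 12 and 38.1, 35.3 and 31.7 CPM in DMSO replicates 1, 4 and 10. RA replicate 9 fell inside the DMSO range and the other 2 RA libraries below it. The estimate was -0.19 on the log2 scale (SE 0.18, edgeR adjusted p-value 0.855), and the 95% interval of the fold was 0.665 to 1.16.

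Levels of different genes were compared per exonic length, as TPM (the CPM analogue in which each count is first divided by exonic length). In RA the order was nrip1b at 65.5 ± 33.1, nrip1a at 58.8 ± 30.0, ncoa3 at 45.3 ± 12.0, ncor1 at 22.6 ± 3.70, ncoa2 at 8.72 ± 1.62 and ncoa1 at 8.41 ± 2.03 TPM (SD, n = 3). In DMSO it was ncoa3 at 26.9 ± 2.45, ncor1 at 21.9 ± 2.67, nrip1b at 18.8 ± 3.27, nrip1a at 15.4 ± 3.10, ncoa2 at 9.87 ± 1.09 and ncoa1 at 7.98 ± 0.476 TPM. By these means the nrip1 paralogs stood at the head of the order in RA and in its middle in DMSO. In RA replicate 12 ncoa3 led, at 39.5 TPM against 34.3 for nrip1b and 28.1 for nrip1a. Among neighbours in RA, the libraries of nrip1b, nrip1a and ncoa3 overlapped, as did those of ncoa2 and ncoa1. Those of ncoa3 and ncor1, and of ncor1 and ncoa2, did not. In DMSO the 4 genes from ncoa3 to nrip1a overlapped with their neighbours, and nrip1a, ncoa2 and ncoa1 were each separate from the next.

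Summed over the 6 genes, the level was 287, 206 and 135 TPM in RA replicates 6, 9 and 12 and 110, 91.7 and 101 TPM in DMSO replicates 1, 4 and 10. The nrip1 paralogs together made up 65.5%, 59.4% and 46.3% of that sum in RA and 34.5%, 31.3% and 35.7% in DMSO. Set against ncor1 in the same library, their summed level was 7.75, 4.86 and 3.39 times that of ncor1 in RA and 1.52, 1.36 and 1.83 times in DMSO. The 3 coactivator genes together stood at 3.07, 2.32 and 2.94 times ncor1 in RA and 1.89, 1.99 and 2.30 times in DMSO. For both ratios to ncor1 every RA library was above every DMSO library. The margin of the coactivator ratio was narrow, at RA replicate 9 and DMSO replicate 10. Most of the coactivator sum was ncoa3, while ncoa1 and ncoa2 each overlapped between the groups. The level of ncoa3 was 3.76, 1.75 and 2.73 times that of ncoa1 and ncoa2 together in RA. In DMSO it was 1.42, 1.36 and 1.76 times, an overlap at RA replicate 9. These ratios describe the libraries and were not tested.

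**Figure D3:**
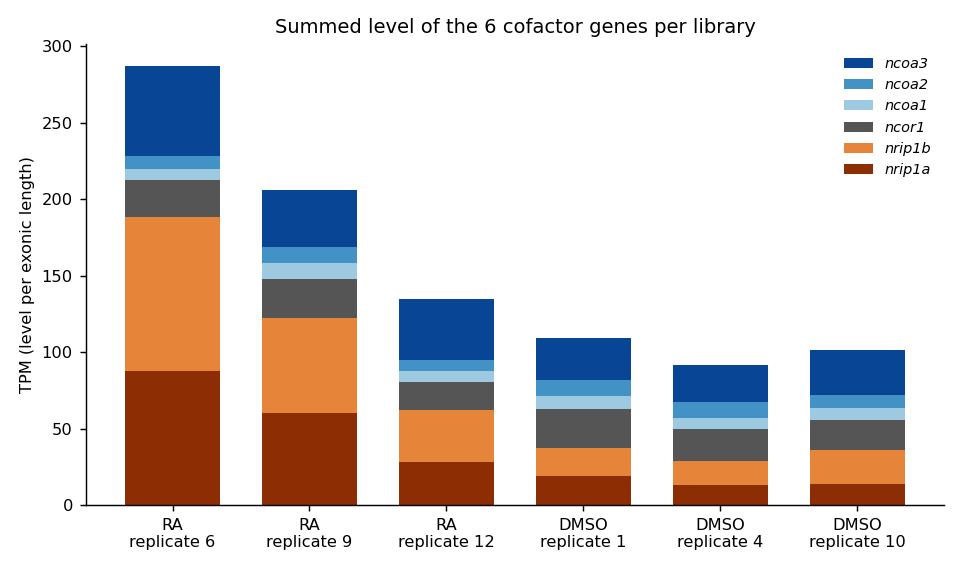
Level per exonic length (TPM, vertical axis from 0) of the 6 cofactor genes, stacked for each RA library (left) and DMSO library (right). The brown and orange segments of nrip1a and nrip1b hold 46.3% to 65.5% of the sum in RA and 31.3% to 35.7% in DMSO.

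Profiles over the 6 libraries were compared by the root mean square difference of log2 CPM, each gene centred on its own mean, over 8776 candidate genes with a symbol and a mean of at least 10 CPM. The gene nearest to nrip1a was nrip1b, and the gene nearest to nrip1b was nrip1a, at a difference of 0.212. Next for both came hoxc1a, a hox transcription factor gene of the RA-sensitive anterior group, at 0.314 from nrip1a and 0.329 from nrip1b. It had 584, 423 and 369 CPM in RA replicates 6, 9 and 12 and 137, 102 and 115 CPM in DMSO replicates 1, 4 and 10. Its log2 change of 1.95 (SE 0.20) passed, at an edgeR adjusted p-value of 0.00729. The remaining neighbours were ndnfl for nrip1a, at 0.334, and sgms1b, a sphingomyelin synthase gene, for nrip1b, at 0.332, and neither passed (edgeR adjusted p-values 0.155 and 0.0785).

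The genes nearest to ncoa3 were gstk1 at 0.107, bmi1a (a Polycomb component) at 0.116 and mllt10 at 0.121, with log2 fold changes of 0.59, 0.54 and 0.78 and edgeR adjusted p-values of 0.323, 0.287 and 0.0681. Nearest to ncor1 were arhgef1, farp1 and mast1b, at 0.0413 to 0.047. Nearest to ncoa1 were tmem184ba, ppp1cb and tspan6, at 0.0322 to 0.0458, and nearest to ncoa2 were daam1b, baz2a and fmnl2b, at 0.0373 to 0.051. These 9 genes all lay between -0.20 and 0.10 in log2 fold change. Within the RA group all 9 were highest in replicate 9, as were ncor1, ncoa1 and ncoa2 themselves. All neighbours here were chosen for profiles near those of the members. Their likeness to them in fold change and in the order of libraries follows from that choice.

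**Figure D4:**
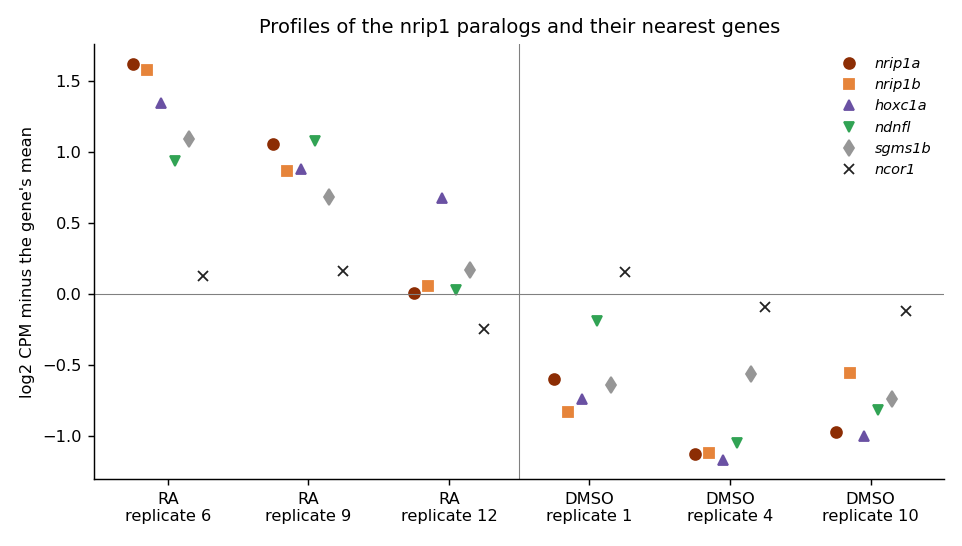
Log2 CPM minus each gene's own mean (vertical axis) in RA libraries (left) and DMSO libraries (right) for nrip1a, nrip1b, their nearest genes hoxc1a, ndnfl and sgms1b, and ncor1 for contrast. The points of nrip1a and nrip1b lie near each other, at a root mean square difference of 0.212 and farthest apart in DMSO replicate 10, while ncor1 stays near 0.

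Genes for proteins that work with these cofactors were counted from lists. Of 15 corepressor partners, 0 passed in edgeR, 6 were higher and 9 lower, and the median log2 fold change was -0.04. They lay between -0.31 and 0.43. Where 10.2% of tested genes stood at an unadjusted p under 0.05 in either direction by edgeR, 1 of the 15 did. That gene was ctbp2a, a CtBP family corepressor of the kind that mammalian NRIP1 binds, which averaged 136 ± 20.5 CPM in RA and 101 ± 7.62 CPM in DMSO (log2 fold change 0.43, SE 0.14, edgeR adjusted p-value 0.298). The next by size was the ligand-dependent corepressor gene lcor at -0.31 (SE 0.16), which averaged 141 ± 10.1 CPM in RA and 174 ± 36.8 CPM in DMSO. The deacetylase gene hdac3, whose product is the enzyme of the NCoR complex, stood at 131 ± 25.9 CPM in RA and 130 ± 12.6 CPM in DMSO.

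Of 21 coactivator partners, 20 were tested and 0 passed in edgeR, with 5 higher and 15 lower, a range of -0.35 to 0.39 and a median of -0.12. At an unadjusted p under 0.05 by edgeR there was again 1, where 10.2% of tested genes stood in either direction. It was ncoa4 at -0.35 (SE 0.14, edgeR adjusted p-value 0.422), which averaged 114 ± 11.5 CPM in RA and 146 ± 18.2 CPM in DMSO. Its exons share 59 bases with a gene on the opposite strand, so its count is uncertain. The largest by size were ppargc1a, a coactivator of mitochondrial genes, at 0.39 (SE 0.21), ncoa4, and the acetyltransferase gene kat2b at -0.31 (SE 0.20). The acetyltransferase genes ep300a, ep300b, crebbpa and crebbpb, whose products the SRC family recruits, lay at -0.19, -0.18, -0.07 and -0.20, and none passed. The exons of crebbpa share 46 bases with another gene on its strand, so its count is uncertain too.

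**Figure D5:**
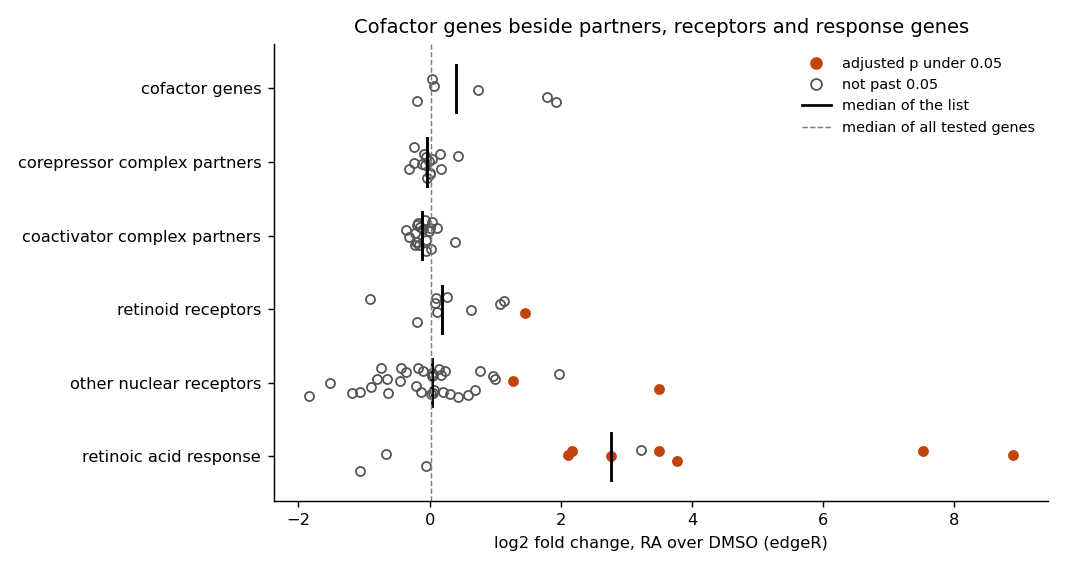
Log2 fold change of RA over DMSO (horizontal axis) for the tested genes of 6 lists, with 1 circle per gene, filled where the edgeR adjusted p-value was under 0.05, a black bar at each list's median and a dashed line at the median of all tested genes (0.02). The partners of both kinds lie between -0.35 and 0.43, and nrip1a and nrip1b lie at 1.92 and 1.78.

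The receptors that these cofactors bind were counted in the same way. Of the 10 RAR and RXR genes, 1 passed, rxrga, at 376 ± 120 CPM in RA and 137 ± 22.4 CPM in DMSO (log2 fold change 1.46, SE 0.23, edgeR adjusted p-value 0.0352). Of 15 alternatives, 11 kept it past the threshold, 2 of them among the 6 fits without a library. The list had 8 higher and 2 lower, with a median of 0.19. At an unadjusted p under 0.05 by edgeR, 4 of 10 were higher and 1 lower, where 10.2% of tested genes stood in either direction. Of 36 tested genes for other nuclear receptors, 20 were higher and 16 lower, with a median of 0.04, and 2 passed, both higher. These were nr6a1b, an orphan receptor gene, at 85.2 ± 57.2 CPM in RA and 7.52 ± 2.89 CPM in DMSO (log2 fold change 3.50, SE 0.55, edgeR adjusted p-value 0.0343), and ppardb, a fatty acid receptor gene, at 96.2 ± 27.5 CPM in RA and 39.8 ± 4.82 CPM in DMSO (log2 fold change 1.27, SE 0.22, edgeR adjusted p-value 0.0474). In fits without a single library they passed in 2 and 1 of 6. Of the 36 genes, 7 were higher and 4 lower at an unadjusted p under 0.05 by edgeR. The exons of ppardb share 84 bases with another gene on its strand.

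The RA response list was read as a reference for scale. Of its 11 genes, 8 had a higher estimate and 3 a lower one, the lowest at -1.06, with a median of 2.77. In edgeR 7 rose past the threshold and none fell past it, while 2 were lower at an unadjusted p under 0.05. Over all tested genes 0.446% rose past the threshold, and 10.2% stood at that unadjusted p in either direction. At 1.92 and 1.78, the nrip1 paralogs had smaller estimates than hoxb5b at 2.11 (SE 0.20) and crabp2b, an RA-carrier gene, at 2.17 (SE 0.19), the smallest of the 7. Their standard errors were larger, at 0.37 and 0.35. The others that passed were hoxb5a at 2.77, hoxb1b at 3.50, dhrs3b at 3.77, dhrs3a at 7.52 and cyp26a1. None of the 7 passed in all 6 fits without a library (3 to 5 of 6).

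Markers of the sorted cells and of others that the gate could hold are given beside these values, as the summed CPM of each list on the unscaled total. The motor neuron sum was 5026, 5369 and 6207 in RA replicates 6, 9 and 12. In DMSO replicates 1, 4 and 10 it was 9017, 6854 and 7872, without overlap. Abundant genes such as isl1a and phox2bb weigh heavily in this sum. Of 12 genes, 9 had a lower estimate, and the median log2 change was -0.14. At an unadjusted p under 0.05 in edgeR 5 were lower and 1 higher. Of the 17270 tested genes, 853 were lower and 916 higher at that p. The threshold was passed by 1, tbx20 at -1.65 (SE 0.13, edgeR adjusted p-value 0.00482). The vessel and immune sum was 17.0 to 35.6 in RA and 77.1 to 101 in DMSO, also without overlap, and 1 of 6 tested genes passed, kdrl at -2.73 (SE 0.37, edgeR adjusted p-value 0.0197). In DMSO that sum was mostly kdrl, at a mean of 82.2 CPM. In RA kdrl averaged 12.4 CPM, less than the other genes of the list together. The other 5 tested genes had higher estimates in RA and the median of the list was 1.34. Progenitor and glial markers overlapped at 2542 to 4107 in RA and 3325 to 3543 in DMSO, and 1 of 11 passed, gfap at 1.00 (SE 0.16, edgeR adjusted p-value 0.0352). In the 6 fits without a library tbx20 passed in 6, kdrl in 3 and gfap in 1.

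None passed in the other marker lists, and their sums, which the most abundant genes dominate, overlapped. Counts at an unadjusted p under 0.05 by edgeR are to be read beside all tested genes. Of those, 10.2% stood in either direction and 5.3% higher. Cell cycle genes summed to 2181 to 2727 in RA and 1599 to 2762 in DMSO, with 7 of 10 at a higher estimate and a median log2 change of 0.04. Cranial sensory neuron genes summed to 1523 to 1757 in RA and 1685 to 2132 in DMSO, with 11 of 13 at a lower estimate, a median of -0.56 and 4 lower at an unadjusted p under 0.05. Other hindbrain neuron genes summed to 446 to 592 in RA and 443 to 769 in DMSO, with 10 of 13 at a lower estimate and a median of -0.47. Epidermal markers summed to 165 to 892 in RA and 286 to 474 in DMSO (5 of 7 higher, median 0.68), and muscle markers to 39.0 to 1008 in RA and 25.8 to 472 in DMSO (3 of 5 higher, median 0.59). Neural crest and pigment markers summed to 115 to 631 in RA and 106 to 187 in DMSO, with 4 of 7 at a higher estimate, a median of 2.33, and 2 higher and 1 lower at an unadjusted p under 0.05. Erythrocyte markers summed to 1.57 to 2.89 in RA and 2.01 to 62.2 in DMSO, and the 1 tested gene had a log2 change of -1.47. The dissociation response summed to 3911 to 4084 in RA and 3800 to 5220 in DMSO. In that list 10 of 11 genes had a lower estimate in RA, with a median of -1.13 and 3 lower at an unadjusted p under 0.05. The p53 response summed to 480 to 672 in RA and 373 to 542 in DMSO, with 7 of 8 at a higher estimate and a median of 0.17. The single RA libraries with the highest sums were replicate 6 for muscle and replicate 9 for epidermis and pigment. No listed gene was at 0 in all 6 libraries. What part these cells and responses have in the values of the nrip1 paralogs and ncoa3 was not tested.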

How the data were processed

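The authors deposited raw counts of fragments per gene, 1 table per library. Counting used featureCounts 1.6.0 on paired reads without strand, per the file headers, and the Ensembl release 95 annotation of GRCz11. Per the submitters' processing notes, STAR 2.5.2a and bcl2fastq 1.8.4 were used. Those notes give Subread 1.5.0, which differs from the headers. Read trimming and duplicate handling are not given in the sources used here. Fragments that meet several genes or places are left out, and antisense fragments are counted.

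A table of identifiers named 29201 of 32520 genes. For 10957 of them, an orthologue's symbol in capitals was replaced by the RefSeq symbol (GRCz12tu, names alone) of a single gene on the same chromosome, as for nrip1a. Tests used edgeR 4.0.16 in R 4.3.3 (filterByExpr, TMM, quasi-likelihood test of treatment, Benjamini-Hochberg over 17270 genes, threshold 0.05). Standard errors are the log2 fold change over the square root of F, and 95% intervals use the test's degrees of freedom. TPM used the deposited exonic lengths. The fit was tested on simulated data. A floor of 3 counts is 0.128 to 0.188 CPM. The libraries hold no molecular identifiers, so it covers counting error only.

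The members, lists and tests were chosen with earlier results of these data known. Of 229 entries in 17 lists, 215 matched. Named genes are the members, list genes past the threshold (for receptors, partners and response genes without one, the 3 largest by absolute change at a mean count of at least 20) and the 3 nearest profiles of each member. A gene that this rule names is not reported here. Others in the text (hdac3, the ep300 and crebbp genes, isl1a, phox2bb) were chosen after their values were seen. Alternatives were other scalings and filters, a robust dispersion, DESeq2 1.42.0, voom in limma 3.58.1 (plain, or weighting libraries by quality), and each library left out.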

Additional observations from a re-analysis of the deposited data

How the results depend on the processing

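The direction of nrip1a, nrip1b, ncoa2 and ncoa3 held in all 15 alternatives. Scaling by DESeq2 size factors, upper quartile or library size changed no call of a member and moved the median of all genes by less than 0.1. The count of 138 genes past the threshold was 276 with no filter on low counts, 671 with DESeq2 and 394 with quality weights, and 9 (without DMSO replicate 4) to 325 (without RA replicate 9) with a library left out, each of the 6 moving it by over 1.5 times. For the 13 list genes it was 20, 31 and 24, and 1 to 20. For the 0 cofactor genes it was 2, 3 and 3, and 0 to 2. The log2 fold change of nrip1a passed at 1.90 with no filter, 1.92 with DESeq2 and 2.10 with quality weights, and was 1.51 to 2.25 with a library left out. That of nrip1b passed at 1.76, 1.78 and 1.95, and was 1.34 to 2.08. That of ncoa3 passed at 0.74 with DESeq2 and 0.92 with quality weights. The near-zero estimate of ncor1 turned negative without DMSO replicate 10, RA replicate 6 or RA replicate 9, with a range of -0.036 to 0.16 over the fits with a library left out. That of ncoa1 turned to -0.030 with quality weights and ranged from -0.14 to 0.16. The log2 ratio of the paralogs turned to -0.054 without DMSO replicate 10, with a range of -0.054 to 0.27. The causes were not tested. Levels in TPM moved by less than 1 SD when taken over tested genes alone. With a library left out they also moved by less than 1 SD. The mean of 3 libraries cannot move further, so those fits do not test the levels. No paired analysis was possible because the groups share no replicate number. With 3 libraries a group, the differences of ncor1, ncoa1 and ncoa2 were not distinguishable from 0. The smallest difference that could be detected was not tested.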
